A study of Mus musculus with 12 samples.

Results

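The comparison described here is the interaction between Sirt3 genotype and diet in mouse liver, that is, how far the difference between high-fat and standard diet in knockout mice departed from the same difference in wild-type mice. All 12 of the 12 arrays of the study entered it, in 4 groups of 3. The groups were wild type on standard diet, SIRT3 knockout on standard diet, wild type on high-fat diet and SIRT3 knockout on high-fat diet. All mice were of the 129Sv strain, were 12 weeks old and had been fasted for 24 h before the whole liver was taken. The high-fat groups had been weaned onto a Western diet with 42% fat, and how long the mice ate it beyond that is not given in the sources used here. Labels and methods used here do not say which cells lacked SIRT3, whether arrays came from pooled mice, or which sex was used. Nothing in them states that the replicates were separate animals, so p-values measure only the spread between these samples.

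SIRT3 is a deacetylase of the mitochondrial matrix that uses NAD and removes acetyl groups from enzymes of fat oxidation, ketone synthesis, the urea cycle, the respiratory chain and antioxidant defence. Fasting raises its activity in liver, and long feeding on fat is known to increase acetylation of mitochondrial proteins. It acts on proteins, so transcripts report only what lies downstream of it. An interaction is given on the log2 scale as the genotype difference (knockout minus wild type) on the high-fat diet less the genotype difference on the standard diet. A value of 0 means that the genotypes differed equally on either diet, a negative value that the knockout stood lower, relative to wild type, on the high-fat diet than on the standard diet. Because the values of the diets appear to come from separate normalization runs, a shift of a gene between the runs enters every diet difference, and it cancels in the interaction.

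Some arrays stood apart from their groups before any test. Standard-diet knockout replicate 1 had Saa1, an acute phase protein, at 11.78 against 5.00 to 7.88 on the other 11 arrays. It had Elovl3, a male-biased fatty acid elongase, at 7.26 against 9.32 to 10.65, and the Y-linked Uty at 6.51 against 7.43 to 8.17. High-fat wild-type replicate 3 was the highest array for antigen presentation genes (list mean 0.60 above the mean of all arrays) and for macrophage and Kupffer cell markers (0.47). Standard-diet knockout replicate 2 was the highest for pancreas, fat and muscle markers (0.58). Hepatocyte markers stayed between -0.05 and 0.05 on every array, with Alb, the albumin gene, between 14.05 and 14.16, so the labelled tissue and the markers match. Below, "without both arrays" means without standard-diet knockout replicate 1 and high-fat wild-type replicate 3. List medians that moved most are given without the array concerned, and a gene value of at least 0.1 in size that moved by over 1.5 times without both arrays is followed by that value.

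Sirt3, whose product the knockout lacks, gave 8.97, 9.04 and 9.13 in standard-diet wild type and 8.83, 8.94 and 8.95 in standard-diet knockout. On the high-fat diet it gave 9.29, 9.14 and 9.13 in wild type and 8.92, 8.49 and 8.87 in the knockout. The knockout arrays lay below the wild-type arrays on both diets without overlap, and the gap was wider on the high-fat diet. Its interaction was -0.28 (SE 0.152, 95% interval -0.61 to 0.04, limma adjusted p = 0.945). Where the probes lie relative to the deleted part is not given in the sources used here, so this signal does not check the genotype labels.

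No gene passed the test for the interaction. With limma, 0 of 19938 genes (0%) had a Benjamini-Hochberg adjusted p under 0.05, and the smallest adjusted p was 0.945. An unadjusted p under 0.05 was reached by 944 genes (4.73%), of which 131 (0.657%) were higher and 813 (4.08%) lower. The balance between higher and lower rested on how arrays were scaled: 86.1% of these genes were lower with the deposited values, 54.1% after quantile normalization, 54.5% after cyclic loess and 43% after median centring. The median interaction over all genes was -0.05 with the deposited values and 0.04 after median centring. In 4 classes of rising brightness, the median was -0.08, -0.10, -0.05 and 0.02, and 67.4%, 73.3%, 62.6% and 43.2% of the genes stood lower. Over all genes 61.6% stood lower. The knockout minus wild-type difference had a median of 0.04 on the standard diet and -0.02 on the high-fat diet.

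The precision bounds how large a difference the arrays could have missed. The median SE of the interaction was 0.161, and the median gene had a 95% interval of 0.344 to either side. The interval lay within 1 unit of 0, a 2-fold difference in diet response, for 19542 genes (98%), and within 0.5 for 11271 genes (56.5%). Only 18 genes had an interaction larger than 1 in size, and none of these was called. In simulated data with known changes the same fit recovered 14.9% of 67 genes with an interaction of 0.5, 82.1% of 67 genes with one of 1 and 98.5% of 66 genes with one of 2. The simulated noise was normal and independent between genes, without the deviations of whole arrays described above. These shares hold for that setting and were not measured for the real arrays. A gene-specific difference of 0.5 was mostly not detectable with 3 arrays per group even in that setting. Genes named by rule and further genes chosen without a rule are given below as values, and none of them passed the test.

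Among the genes that make and desaturate fatty acids, Scd1 had the largest departure. Scd1 is the stearoyl-CoA desaturase that makes monounsaturated fatty acids, and dietary fat and sugar are known to change it strongly in liver. In wild type it stood at 10.10, 9.13 and 10.18 on the standard diet and at 13.21, 13.11 and 13.22 on the high-fat diet. In the knockout it stood at 11.74, 11.49 and 11.31 on the standard diet and at 13.54, 13.52 and 13.04 on the high-fat diet. The genotypes were apart on the standard diet, where every knockout array was above every wild-type array, and overlapped on the high-fat diet. The diet difference was 3.38 in wild type (10.4-fold) and 1.85 in the knockout (3.61-fold), each across the normalization runs. The interaction was -1.52 (SE 0.307, 95% interval -2.18 to -0.87, unadjusted p = 0.000187, limma adjusted p = 0.945), or -1.39 without the standard-diet knockout array and the high-fat wild-type array that stood apart. Leaving out each array in turn gave -1.71 to -1.19, the smallest without standard-diet wild-type replicate 2, the lowest array for this gene.

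The Scd1 paralogs Scd2 and Scd3 stood at -0.43 (SE 0.231, or -0.29 without both arrays) and -0.26 (SE 0.161). Fasn, the fatty acid synthase, stood at -0.12 (SE 0.175), Acly at -0.13 (SE 0.121, or -0.07 without both arrays), Acaca at 0.15 (SE 0.157) and Srebf1, the transcription factor of lipogenesis, at -0.08 (SE 0.198). Elovl1, an elongase of long saturated chains, stood at -0.35 (SE 0.137, 95% interval -0.64 to -0.06) with the high-fat knockout arrays below wild type. Over the 22 genes of fatty acid synthesis, desaturation and elongation the median was 0.05, against -0.05 for all genes, with 0 called, 3 lower and 1 higher at an unadjusted p under 0.05. In either direction 18.2% of the list reached that p, against 4.73% of all genes. Triglyceride synthesis and lipid droplet genes had a median of 0.03 (27 genes, none under an unadjusted p of 0.05), and Agpat2, an acyltransferase of that route, stood at -0.27 (SE 0.154). Plin5, a droplet coat protein, stood at -0.32 (SE 0.206) and Cidec, a droplet fusion protein, at 0.34 (SE 0.264). Fatty acid uptake and binding genes had a median of 0.02 over 16 genes, with the binding protein Fabp2 at 0.68 (SE 0.286) and Fabp5 at -0.46 (SE 0.314), or -0.22 without both arrays.

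Chaperones and foldases of the endoplasmic reticulum (ER) were the list with the most members at a low unadjusted p. These proteins fold and check secreted proteins, and many are induced together by the unfolded protein response when folding demand exceeds capacity. Of 27 members, 0 were called, 23 stood lower (61.6% of all genes did) and 8 were lower at an unadjusted p under 0.05 (4.08% of all genes were). The median was -0.26, against -0.05 for all genes and 0.02 for the brightest of the 4 classes. The median genotype difference was 0.13 on the standard diet and -0.15 on the high-fat diet, and 17 members were above wild type on the first and below it on the second. The share of all genes with that order was not counted. The medians over all genes, 0.04 and -0.02, had the same signs. The median difference between high-fat and standard diet, across the runs, was -0.15 in wild type and -0.37 in the knockout. This list was proposed with earlier results of these data known.

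The list median was below 0 in every fit that left out 1 array and under each scaling tried. Leaving out each array in turn gave medians of -0.35 to -0.19. Without the standard-diet knockout array and the high-fat wild-type array that stood apart the median was -0.28, with 26 of 27 members lower and 11 under an unadjusted p of 0.05. It was -0.16 after median centring, -0.27 after quantile normalization and -0.27 after cyclic loess. On single arrays the list mean, relative to all arrays, was -0.04, 0.00 and 0.22 in standard-diet wild type and 0.12, 0.25 and 0.27 in standard-diet knockout. It was -0.16, 0.05 and -0.10 in high-fat wild type and -0.29, -0.26 and -0.05 in high-fat knockout. Wild-type and knockout arrays thus overlapped on both diets.

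Sdf2l1, a cofactor of the ER chaperone BiP, had the largest value of the list. It stood at 8.10, 8.15 and 8.46 in standard-diet wild type and at 8.73, 9.02 and 8.61 in standard-diet knockout. It stood at 7.79, 8.07 and 8.04 in high-fat wild type and at 7.62, 7.24 and 7.92 in high-fat knockout. The knockout arrays were above wild type on the standard diet and overlapped with wild type, mostly below it, on the high-fat diet. Its interaction was -0.92 (SE 0.226, unadjusted p = 0.00105, limma adjusted p = 0.945). Creld2, a disulfide isomerase-like protein, followed at -0.83 (SE 0.364) and Pdia6, a protein disulfide isomerase, at -0.62 (SE 0.187).

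Pdia6 stood at 10.40, 10.23 and 10.65 in standard-diet wild type and 10.83, 10.46 and 10.62 in standard-diet knockout, against 10.45, 10.67 and 10.40 and then 9.92, 10.05 and 10.33 on the high-fat diet. The genotypes overlapped on the standard diet, and on the high-fat diet every knockout array was below every wild-type array. The nucleotide exchange factor Hyou1 stood at -0.57 (SE 0.188), the secreted factor Manf at -0.48 (SE 0.202), the ubiquitin ligase Syvn1 at -0.44 (SE 0.208) and the cochaperone Dnajb11 at -0.35 (SE 0.158). Hspa5, which encodes BiP itself, stood at -0.35 (SE 0.192), Pdia4 at -0.34 (SE 0.153) and the lectin chaperone Calr at -0.32 (SE 0.147, or -0.20 without both arrays). Members near 0 were the sensor Atf6 (0.04), the transcription factor Xbp1 (-0.01), the cochaperone Dnajb9 (0.03), the membrane protein Herpud1 (0.04) and Selenos (0.05). P4hb (-0.03, SE 0.133) and Txndc5 (-0.04, SE 0.141) were near 0 as well. Dnajb9 (SE 0.32) and Herpud1 (SE 0.42) were imprecise. With each array left out in turn they ran from -0.24 to 0.21 and from -0.28 to 0.33. The intervals of these genes near 0 overlapped those of most other members, and no difference between genes was tested.

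**Figure D1:**
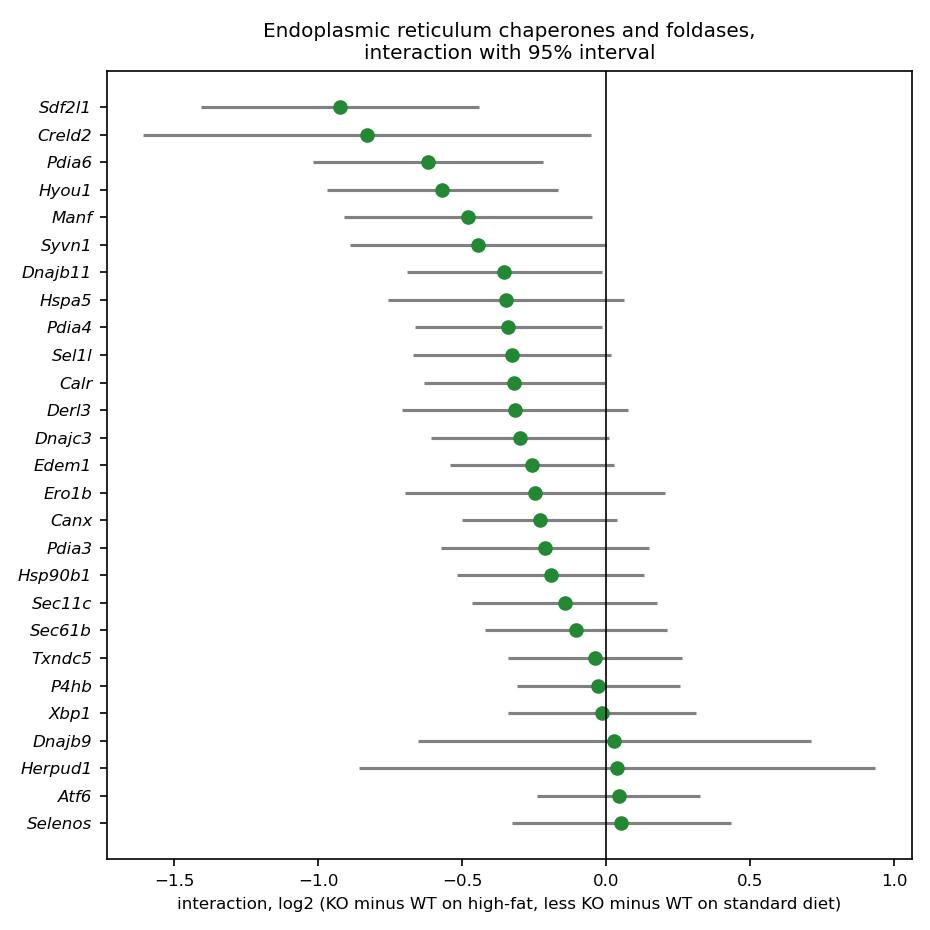
Interaction of each of the 27 ER chaperones and foldases on the log2 scale (point) with its 95% interval (line), ordered by value. Of these, 23 points lie below 0, from Sdf2l1 at -0.92 up, and the intervals of 8 leave out 0 on the lower side.

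Promoter sequence was examined for this list because the ER stress element, bound by ATF6 together with NF-Y, is known from chaperone promoters. The element was searched as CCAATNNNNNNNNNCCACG on both strands in the 300 bases from 250 before to 50 after each annotated gene start (RefSeq, GRCm38.p6). Of the 27 members, 23 had a promoter in that table, and 10 of these (43.5%) held the element, against 37 of 27025 genes with a promoter (0.137%). The shorter CCAAT, which every ER stress element contains, was in 87.0% of the ER promoters and 41.1% of all. Below are the stretches of the 5 genes with the element whose interactions were lowest, 5′ to 3′ along the strand on which the element reads, with its fixed letters in capitals. They lie at chr15:88819505-88819553 (Creld2, minus strand), chr12:17266476-17266524 (Pdia6, plus strand), chr19:6046517-6046565 (Syvn1, plus strand), chr2:34772010-34772058 (Hspa5, plus strand) and chr8:84847060-84847108 (Calr, plus strand).
Creld2: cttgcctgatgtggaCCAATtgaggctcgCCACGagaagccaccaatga
Pdia6: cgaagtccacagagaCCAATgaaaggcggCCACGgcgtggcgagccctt
Syvn1: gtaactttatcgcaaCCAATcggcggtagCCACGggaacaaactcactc
Hspa5: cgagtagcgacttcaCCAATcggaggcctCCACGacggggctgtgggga
Calr: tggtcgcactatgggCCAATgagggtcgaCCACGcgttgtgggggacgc

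The element ended 107 bases before the start of Creld2, 79 before Pdia6, 25 before Syvn1, 46 before Hspa5 and 143 before Calr. The other genes that held it were Derl3, Dnajc3, Ero1b, Canx and Hsp90b1, with 2 copies in Hsp90b1. The 10 genes with the element had a median interaction of -0.32, all of them lower, and the 13 ER genes without it a median of -0.10, 10 of them lower. Sdf2l1 was among those without these exact letters in the window. A match of letters is a description of the window and carries no test. The list was made of chaperones and related genes, so the higher share of the element comes with that choice. It is no result of these arrays, and the difference between the 2 medians was not tested.

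The related integrated stress response is the programme of ATF4 and its amino acid genes. Its 23 genes had a median of -0.09, and 0.00 after median centring, with 0 called and none under an unadjusted p of 0.05. Sesn2, a stress-induced brake on mTORC1, stood at -0.45 (SE 0.237) and Slc3a2, an amino acid transporter subunit, at -0.21 (SE 0.131). Asns, asparagine synthetase and a classic ATF4 target, had a wide interval, with an interaction of -0.58 (SE 0.63, 95% interval -1.93 to 0.77), or -1.38 without both arrays. Immediate early and heat shock genes had a median of -0.22 over 27 genes (23 lower, or 85.2%, against 61.6% of all genes, and 2 at an unadjusted p under 0.05, or 7.41%, against 4.08%), and -0.11 without standard-diet knockout replicate 1. Klf4, an immediate early transcription factor, stood at -0.57 (SE 0.242) and Hspa1a, an inducible cytosolic chaperone, at -0.37 (SE 0.167).

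Slc25a22, a mitochondrial glutamate carrier, was among the genes with the smallest p. It stood at 10.88, 10.71 and 10.89 in standard-diet wild type, 10.85, 10.94 and 10.97 in standard-diet knockout, 10.77, 10.48 and 10.46 in high-fat wild type and 10.13, 10.08 and 10.16 in high-fat knockout. The genotypes overlapped on the standard diet, and the high-fat knockout was below all other arrays. Its interaction was -0.54 (SE 0.13, unadjusted p = 0.000873, limma adjusted p = 0.945), and -0.60 to -0.44 with each array left out in turn. Cbs, the enzyme that channels homocysteine into cysteine synthesis, stood at 11.04, 11.06 and 11.18, then 11.45, 11.36 and 11.21 on the standard diet, and at 10.95, 11.03 and 10.88, then 10.91, 10.71 and 10.60 on the high-fat diet (wild type before knockout). Its interaction was -0.46 (SE 0.132), with the knockout above wild type on the standard diet and overlapping it on the high-fat diet. Slc25a15, the mitochondrial ornithine carrier of the urea cycle, stood at -0.30 (SE 0.109), with the high-fat knockout arrays below wild type.

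The 33 urea cycle and amino acid genes, Cbs and Slc25a15 included, had a median of 0.04, with 0 called and 2 lower at an unadjusted p under 0.05 (6.06%, against 4.08% of all genes). All 33 intervals lay within 1 of 0, 24 of them within 0.5. Cps1, the entry enzyme of the urea cycle, stood at 0.03 (SE 0.107) and Glud1, glutamate dehydrogenase, at -0.12 (SE 0.123), while Gldc, of the glycine cleavage system, stood at -0.33 (SE 0.191) and Gpt2, an alanine aminotransferase, at 0.32 (SE 0.244), or at -0.52 and 0.08 without both arrays.

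Genes that encode mitochondrial enzymes, including proteins known as SIRT3 substrates, had narrow intervals around 0. The 18 substrate genes had a median of 0.03 with 0 called, and 18 of 18 intervals lay within 1 and 17 within 0.5 of 0. Sod2, the manganese superoxide dismutase, stood at 0.17 (SE 0.115) and the urea cycle enzyme Otc at 0.17 (SE 0.151, or 0.06 without both arrays). The NADP-linked isocitrate dehydrogenase Idh2 stood at 0.03 (SE 0.187, or 0.30 without both arrays) and the acyl-CoA dehydrogenase Acadl at -0.01 (SE 0.133). The 19 genes of mitochondrial fatty acid oxidation had a median of 0.04, and all 19 intervals lay within 0.5 of 0. Cpt1a, which admits long-chain fatty acids into mitochondria, stood at 0.16 (SE 0.127) and Decr1, a reductase for unsaturated fatty acids, at 0.16 (SE 0.129). A diet response of fat oxidation transcripts that differed 2-fold between genotypes would lie outside these intervals.

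Electron transport chain and ATP synthase genes had a median of 0.09 over 41 genes, of which 35 stood higher, 0 were called and 1 was higher at an unadjusted p under 0.05 (2.44%, against 0.657% of all genes). The other 6 stood lower (14.6%, against 61.6% of all genes and 43.2% of the brightest class). All 41 intervals lay within 1 of 0, and 31 within 0.5. The member with the smallest p was Ndufb10, a complex I subunit, at 0.35 (SE 0.164), followed by Ndufa2 at 0.26 (SE 0.144). The median was 0.06 without the standard-diet knockout array and the high-fat wild-type array that stood apart, where 12 of 41 members were lower. The TCA cycle and pyruvate entry genes had a median of 0.04 (22 genes), with Pdp1, a phosphatase that activates pyruvate dehydrogenase, at -0.31 (SE 0.148) and Ogdh at 0.14 (SE 0.0992). Mitochondrial chaperones, proteases and dynamics had a median of 0.06 (24 genes), with the protease Yme1l1 at 0.33 (SE 0.195) and the mitochondrial transcription factor Tfb2m at 0.34 (SE 0.211), or at 0.21 and 0.20 without both arrays. NAD metabolism and sirtuin genes had a median of 0.00 over 25 genes, with Nmrk1, a nicotinamide riboside kinase, at 0.71 (SE 0.322).

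Ketone body synthesis rested on 4 genes with a median of 0.04, among them the hormone Fgf21 at 0.28 (SE 0.301) and the monocarboxylate transporter Slc16a1 at -0.35 (SE 0.384), or at 0.15 and -0.56 without both arrays. Peroxisomal oxidation and PPAR-alpha targets had a median of 0.01 over 25 genes, and -0.04 after quantile normalization. In that list Nudt7, a peroxisomal CoA hydrolase, stood at 0.57 (SE 0.258), or 0.27 without both arrays, and Crat, carnitine acetyltransferase, at -0.20 (SE 0.116). NRF2 and antioxidant genes had a median of 0.01 over 27 genes, and -0.02 after cyclic loess. Gclm, a subunit of the enzyme that starts glutathione synthesis, stood at 0.20 (SE 0.101), and Hmox1, heme oxygenase, at -0.65 (SE 0.33), or -0.22 without both arrays.

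Of the 15 genes with the smallest p in the lower direction, the knockout was above wild type on the standard diet and below it on the high-fat diet, without overlap on either, in 6. In 7 the genotypes were apart only on the standard diet, and in 2 only on the high-fat diet. Choice by smallest p favours groups that do not overlap, and the share of all genes with these patterns was not counted. Marcksl1, a regulator of the actin cytoskeleton, had the smallest p of all genes. It stood at 6.78, 6.70 and 6.72 in standard-diet wild type, 7.06, 7.01 and 6.95 in standard-diet knockout, 7.22, 7.20 and 7.22 in high-fat wild type and 6.93, 6.80 and 6.95 in high-fat knockout. The groups did not overlap on either diet and the order of the genotypes was opposite, with an interaction of -0.59 (SE 0.117, unadjusted p = 0.000153, limma adjusted p = 0.945). Gsdmc2 (-0.71), the small heat shock protein gene Hspb3 (-0.60), Acvrl1, a receptor of the BMP family in endothelium (-0.57), Fezf2 (-0.59) and Cmtm3 (-0.53) had the same crossing order. The rest of the 15 were Krtap4-6 (-0.68), Swsap1 (-0.65), the cytokine subunit Il23a (-0.68), Crip2 (-0.72), Nsg2 (-0.59) and Tuba3b (-1.15), with Scd1, Slc25a22 and Sdf2l1. Of the 15, 9 had a mean level under 7, near or below the array medians, and the unadjusted p-values ran from 0.000153 to 0.00157.

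Of the 15 genes with the smallest p in the higher direction, the knockout was below wild type on the standard diet alone in 7, above it on the high-fat diet alone in 5, and both in 2, while the groups overlapped on both diets in 1, Wdr45b. Here too the choice by p favours such patterns, and their share of all genes was not counted. Gpcpd1, a glycerophosphocholine phosphodiesterase, stood at 11.24, 11.29 and 10.90 in standard-diet wild type, 10.48, 10.20 and 10.80 in standard-diet knockout, 11.50, 11.26 and 11.40 in high-fat wild type and 11.20, 11.23 and 12.05 in high-fat knockout. The genotypes were apart on the standard diet, and high-fat knockout replicate 3 was the highest array. Its interaction was 0.76 (SE 0.278), and 0.49 without that array. Ugt2a3, a glucuronosyltransferase, stood at 11.89, 11.70 and 11.94, then 11.18, 11.29 and 11.57 on the standard diet, and at 11.89, 11.95 and 11.45, then 11.77, 11.81 and 11.75 on the high-fat diet. Standard-diet knockout was its low group, and its interaction was 0.51 (SE 0.179), or 0.27 without both arrays.

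Gch1, the enzyme that starts tetrahydrobiopterin synthesis, stood at 0.47 (SE 0.161), the mitochondrial import chaperone Timm8a1 at 0.47 (SE 0.166), the muscle protein Csrp3 at 0.42 (SE 0.14) and the potassium channel Kcnj16 at 0.61 (SE 0.184). The others were Spata45 (0.83), Wdr45b (0.55), Svs6 (0.50), Pcdhb12 (0.44), Cyb5d1 (0.43), the ER-shaping GTPase Atl1 (0.42), Pcgf3 (0.37), Mageh1 (0.35) and Aatf (0.34). Svs6 and Pcdhb12 were dim, at or below 4.60 on every array. The unadjusted p-values of the 15 ran from 0.00497 to 0.0165.

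**Figure D2:**
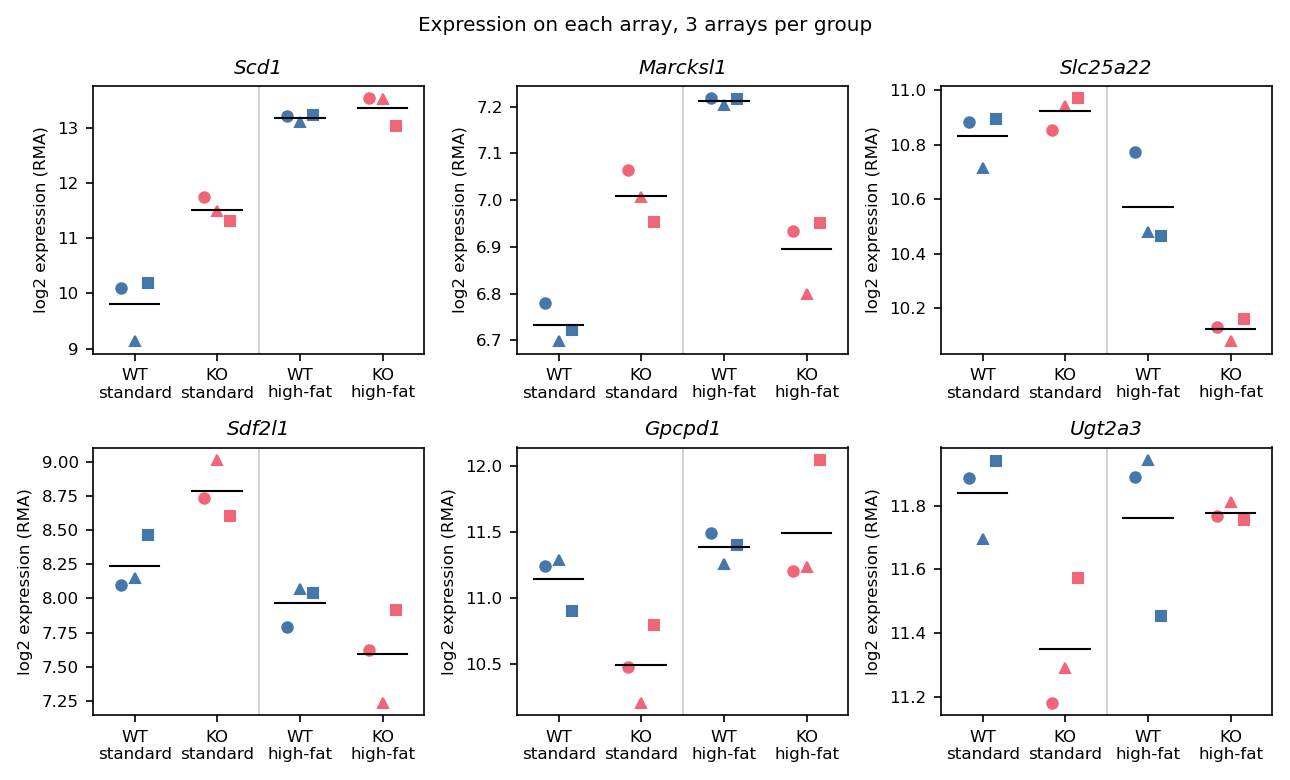
Log2 expression of 6 genes on each of the 12 arrays, wild type (WT) in blue and knockout (KO) in red, with circles, triangles and squares for replicates 1, 2 and 3 and a black line for the group mean. Marcksl1 changes the order of the genotypes between the diets, Scd1 and Ugt2a3 separate them on the standard diet, and Slc25a22 separates them on the high-fat diet.

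Among the genes with the largest diet differences, Scd1 alone had an interaction whose interval left out 0. Averaged over genotypes, 3582 genes (18%) were called between the diets, 2049 higher (10.3%) and 1533 lower (7.69%) on the high-fat arrays. These calls lie across the normalization runs and are used only to choose 10 genes in each direction. Of these 20 genes, 19 had an interval of the interaction that held 0, and 12 an interval within 1 of 0. Cd36, a fatty acid translocase, stood at 8.07, 7.92 and 8.05 in standard-diet wild type, 8.73, 8.08 and 8.17 in standard-diet knockout, 10.04, 9.37 and 10.11 in high-fat wild type and 10.16, 10.54 and 10.16 in high-fat knockout. The high-fat arrays were above the standard-diet arrays in each genotype, by 1.82 in wild type and 1.96 in the knockout, and the interaction was 0.14 (95% interval -0.44 to 0.71), or 0.47 without both arrays.

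Adam11 had the narrowest interval of the higher genes, with an interaction of -0.03 (95% interval -0.34 to 0.29) on a diet difference of 1.62 and 1.60. Lpl, lipoprotein lipase, stood at -0.37 (95% interval -0.99 to 0.24) and Inmt, an indole methyltransferase, at -0.37 (95% interval -0.76 to 0.03). Themis, known from T cells, stood at 0.02 and the clock output factor Dbp at 0.11, Zfp991 at 0.14 (-0.13 without both arrays) and the steroid dehydrogenase Hsd3b3 at 0.36. Sult1e1, the estrogen sulfotransferase, was spread widely, with high-fat knockout arrays at 5.71, 7.95 and 7.14, and its interaction of 0.81 had an interval of -0.42 to 2.03, and stood at 0.43 without both arrays.

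Cyp17a1, a steroid hydroxylase, had the largest lower difference between the diets averaged over genotypes. It stood at 10.70, 10.28 and 9.83, then 11.65, 9.98 and 10.07 on the standard diet, and at 7.33, 8.05 and 7.29, then 7.82, 8.00 and 7.53 on the high-fat diet (wild type before knockout). The high-fat arrays of either genotype were below all standard-diet arrays, by -2.71 in wild type and -2.78 in the knockout, and the interaction was -0.07 (95% interval -1.15 to 1.00), or 0.34 without both arrays. The sterol genes Sqle (-0.09), Msmo1 (-0.04), Cyp51 (0.09), Fdps (-0.22), Tm7sf2 (-0.29) and Idi1 (0.41) and the oxysterol hydroxylase Cyp39a1 (0.09) had interactions smaller in size than either of their diet differences. Without both arrays Fdps stood at -0.08 and Idi1 at 0.23. Pdk4, which restrains pyruvate oxidation, stood at -0.62 (95% interval -1.63 to 0.39) and Gadd45g at -0.33 (95% interval -1.80 to 1.15), or 0.05 without both arrays, both wide.

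**Figure D3:**
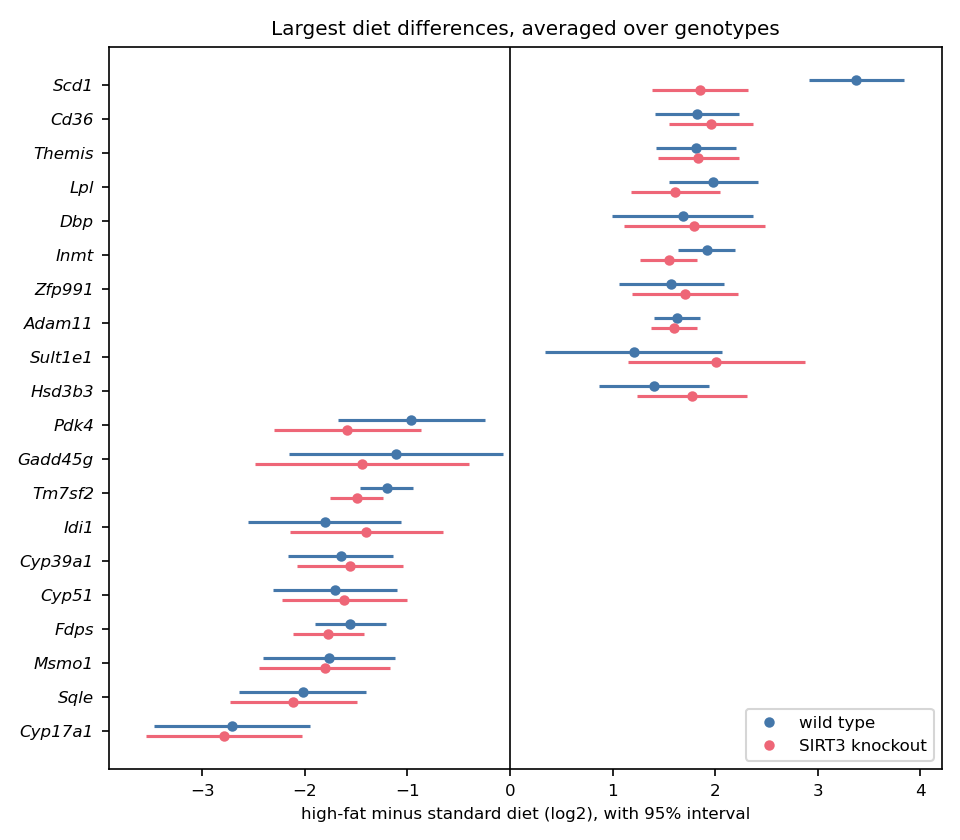
High-fat minus standard diet on the log2 scale with its 95% interval, in wild type (blue) and in SIRT3 knockout (red), for the 10 genes with the largest difference in each direction averaged over genotypes. The intervals of the genotypes overlap for every gene except Scd1, at 3.38 in wild type and 1.85 in the knockout.

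Lists around cholesterol, bile and fasting fuel were close to the value of all genes. The 20 cholesterol synthesis genes had a median of -0.10 with 17 lower (85%, against 61.6% of all genes), none under an unadjusted p of 0.05. Their median was -0.04 without standard-diet knockout replicate 1, while their diet difference was -0.75 in wild type and -0.86 in the knockout. Mvd, of the mevalonate route, stood at -0.23 (SE 0.19), or -0.03 without both arrays. Bile acid synthesis and hepatic transport had a median of 0.05 (27 genes), with the export pump Abcc3 at -0.18 (SE 0.0988) and the uptake carrier Slco1a4 at 0.51 (SE 0.321). Slco1a1 and Cyp7b1, genes of male liver, stood at 0.52 (SE 0.335) and 0.28 (SE 0.443), or at 0.31 and -0.37 without both arrays. Lipoproteins and their assembly had a median of 0.03, with all 18 intervals within 0.5 of 0, among them Pltp at -0.15 (SE 0.109) and Apoa4 at 0.14 (SE 0.114).

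Gluconeogenesis, fasting and insulin-controlled genes had a median of 0.03 over 27 genes, with 2 lower at an unadjusted p under 0.05 (7.41%, against 4.08% of all genes). These were Irs1, an insulin receptor substrate, at -0.46 (SE 0.191) and Ppp1r3c, a glycogen-targeting subunit of protein phosphatase, at -1.22 (SE 0.553, 95% interval -2.40 to -0.04). A second, dimmer probe set of Irs1 stood at -0.03 (SE 0.157). Igfbp1, which insulin lowers, stood at -0.49 (SE 0.53), or -0.32 without both arrays. Circadian clock genes had a median of 0.05 over 19 genes, which ran from -0.05 to 0.25 with each array left out in turn. The clock-controlled kinase Wee1 stood at 0.69 (SE 0.402), with high-fat knockout arrays at 8.06, 9.45 and 9.51, and the repressor Nfil3 at -0.55 (SE 0.33).

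Lists of detoxification, steroid hormone and male-biased liver genes had medians above 0, and female-biased genes did not. Leaving out 1 array moved each of these medians, and the array that moved it most differed between lists. Xenobiotic metabolism genes had a median of 0.13 over 40 genes, with 32 higher, 1 of them at an unadjusted p under 0.05 (2.5%, against 0.657% of all genes). The other 8 stood lower (20%, against 61.6% of all genes). The median ran from 0.04 without high-fat knockout replicate 2 to 0.22 without high-fat knockout replicate 1. It was 0.07 without standard-diet knockout replicate 1 and 0.05 without both arrays. Sult2a8, a liver sulfotransferase, stood at 11.94, 11.87 and 12.00 in standard-diet wild type, 10.58, 10.84 and 11.84 in standard-diet knockout, 11.93, 12.09 and 11.93 in high-fat wild type and 11.89, 11.93 and 12.05 in high-fat knockout. Only standard-diet knockout replicates 1 and 2 were low. Its interaction was 0.82 (SE 0.304, limma adjusted p = 0.945), 0.57 without standard-diet knockout replicate 1, 0.54 without both arrays, and 1.20 without replicate 3, where it was the only gene called (limma adjusted p = 0.00657, range over its alternatives 0.00657 to 1).

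Steroid hormone metabolism had a median of 0.26 over 16 genes, with 2 higher at an unadjusted p under 0.05 (12.5%, against 0.657% of all genes). These were the aldo-keto reductases Akr1c19 at 0.74 (SE 0.283) and Akr1c14 at 0.50 (SE 0.213), or 0.56 and 0.29 without both arrays. The list median was 0.06 without high-fat wild-type replicate 3, 0.13 without standard-diet knockout replicate 1 and 0.01 without both arrays. Male-biased liver genes had a median of 0.29 over 25 genes, 0.08 without standard-diet knockout replicate 1 and 0.00 without both arrays. Their list mean was -0.86 on that array and -0.19 to 0.43 on the other 11. Ugt2b1, of that list, stood at 0.42 (SE 0.231), or 0.05 without both. Female-biased genes had a median of -0.04 over 21 genes, 0.06 after median centring, and 0.16 without standard-diet knockout replicate 1, where their list mean was 0.96. Hao2, of this list, stood at -0.50 (SE 0.213) and Nipal1 at -0.83 (SE 0.374), or -0.29 without both arrays. The Y-linked Eif2s3y and Kdm5d were also lowest on standard-diet knockout replicate 1, at 7.55 and 6.17. On the other arrays they stood at 8.19 to 9.14 and 6.73 to 7.38. Standard-diet knockout replicate 2 was next lowest for Eif2s3y (8.19) and Uty (7.43), and stood at 6.87 for Kdm5d. The X-linked Xist stood at 4.44 on replicate 1 and at 4.31 to 4.80 on the other arrays. The part of these differences in the list values was not tested.

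Inflammatory genes stood lower, and they moved with the arrays that stood apart. Acute phase genes had a median of -0.17 over 31 genes, with 27 lower (87.1%, against 61.6% of all genes). The median was 0.01 without standard-diet knockout replicate 1, where their list mean was 0.98 against -0.23 to 0.20 on the other 11 arrays. Saa3, an acute phase apolipoprotein, stood at -1.08 (SE 0.389), or -0.40 without both arrays, while the fibrinogen gene Fga stood at 0.33 (SE 0.128), or 0.38. Interferon response genes had a median of -0.15 over 26 genes, and -0.05 without high-fat wild-type replicate 3. Of them 3 were lower at an unadjusted p under 0.05 (11.5%, against 4.08% of all genes). Oas1a, an antiviral enzyme, stood at -0.69 (SE 0.206), or -0.58 without both arrays, and the chemokine Cxcl10 at -0.89 (SE 0.376), or -0.38. Antigen presentation genes had a median of -0.21 with all 15 lower (61.6% of all genes were), and -0.06 without high-fat wild-type replicate 3. H2-DMa stood at -0.62 (SE 0.268) and the protease Ctss at -0.44 (SE 0.201), or -0.32 and -0.17 without both arrays. Cell cycle genes had a median of -0.12 over 24 genes, with the cyclin Ccnd1 at -0.92 (SE 0.381), or -0.25 without both arrays, and the replication factor Cdc6 at -0.30 (SE 0.164), or -0.20.

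Markers of other liver cells were measured in the same RNA, where fewer cells of a type and less RNA per cell cannot be told apart. Macrophage and Kupffer cell markers had the lowest median, -0.33 over 19 genes. Of these, 17 were lower (89.5%, against 61.6% of all genes) and 4 were lower at an unadjusted p under 0.05 (21.1%, against 4.08%). Without high-fat wild-type replicate 3 the median was -0.14, and without both arrays 11 of 19 were lower. Cd68, a lysosomal protein of macrophages, stood at 7.63, 7.77 and 7.75, then 7.91, 7.86 and 7.85 on the standard diet, and at 7.85, 7.89 and 8.35, then 7.62, 7.72 and 7.81 on the high-fat diet (wild type before knockout). The genotypes did not overlap on either diet and the order was opposite, with an interaction of -0.47 (SE 0.167), or -0.30 without both arrays. The Fc receptor Fcgr1 stood at -0.64 (SE 0.238), or -0.39. Cd68 and Fcgr1 were named for their small p within the list. Clec4f, another marker of it, stood at -0.10 (SE 0.223), or 0.08 without both arrays.

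The other marker lists had medians closer to 0. The neutrophil, lymphocyte, bile duct, pancreas and erythroid lists, like the interferon and cell cycle lists, had median levels in the 2 dimmer classes of genes, where the medians of all genes were -0.08 and -0.10. Neutrophil markers had a median of -0.20 over 12 genes, with Retnlg at -0.54 (SE 0.234) and Mpo at -0.33 (SE 0.148), or -0.30 and -0.22 without both arrays. Lymphocyte and NK cell markers had a median of -0.14 over 17 genes, with Cd3e at -0.39 (SE 0.144) and Cd79a at -0.38 (SE 0.186). Bile duct cell markers had a median of -0.21 with all 9 lower (61.6% of all genes were), including Cldn4 at -0.34 (SE 0.149) and Cftr at -0.34 (SE 0.181). Their median was -0.12 without standard-diet knockout replicate 1. Stellate cell and fibrosis markers had a median of -0.11 (21 genes), with Pdgfrb at -0.29 (SE 0.14) and Col1a2 at -0.31 (SE 0.159, or -0.20 without both arrays), and endothelial markers one of -0.05 (16 genes, 0.04 after median centring), with Tie1 at -0.29 (SE 0.132) and Lyve1 at -0.30 (SE 0.15). Pancreas, fat and muscle markers had a median of -0.28 over 21 genes, and -0.11 without standard-diet knockout replicate 2, with Cela1 at -0.31 (SE 0.13) and Cela3b at -0.42 (SE 0.186), or -0.18 without both arrays. Of the 21 genes 2 stood higher, among them Cpa1 at 0.15 (SE 0.19), and Prss2 stood at -0.02 (SE 0.135). Erythroid markers had a median of -0.09 (5 genes, 0.00 after median centring), with Slc4a1 at -0.29 (SE 0.2, or -0.16 without both arrays) and Epor at -0.17 (SE 0.161). Hepatocyte markers had one of -0.02 (9 genes, all intervals within 0.5 of 0, 0.08 after median centring), with Trf at -0.08 (SE 0.0921) and Cyp2e1 at 0.06 (SE 0.0923). What part a change in cell content has in the other lists was not tested.

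**Figure D4:**
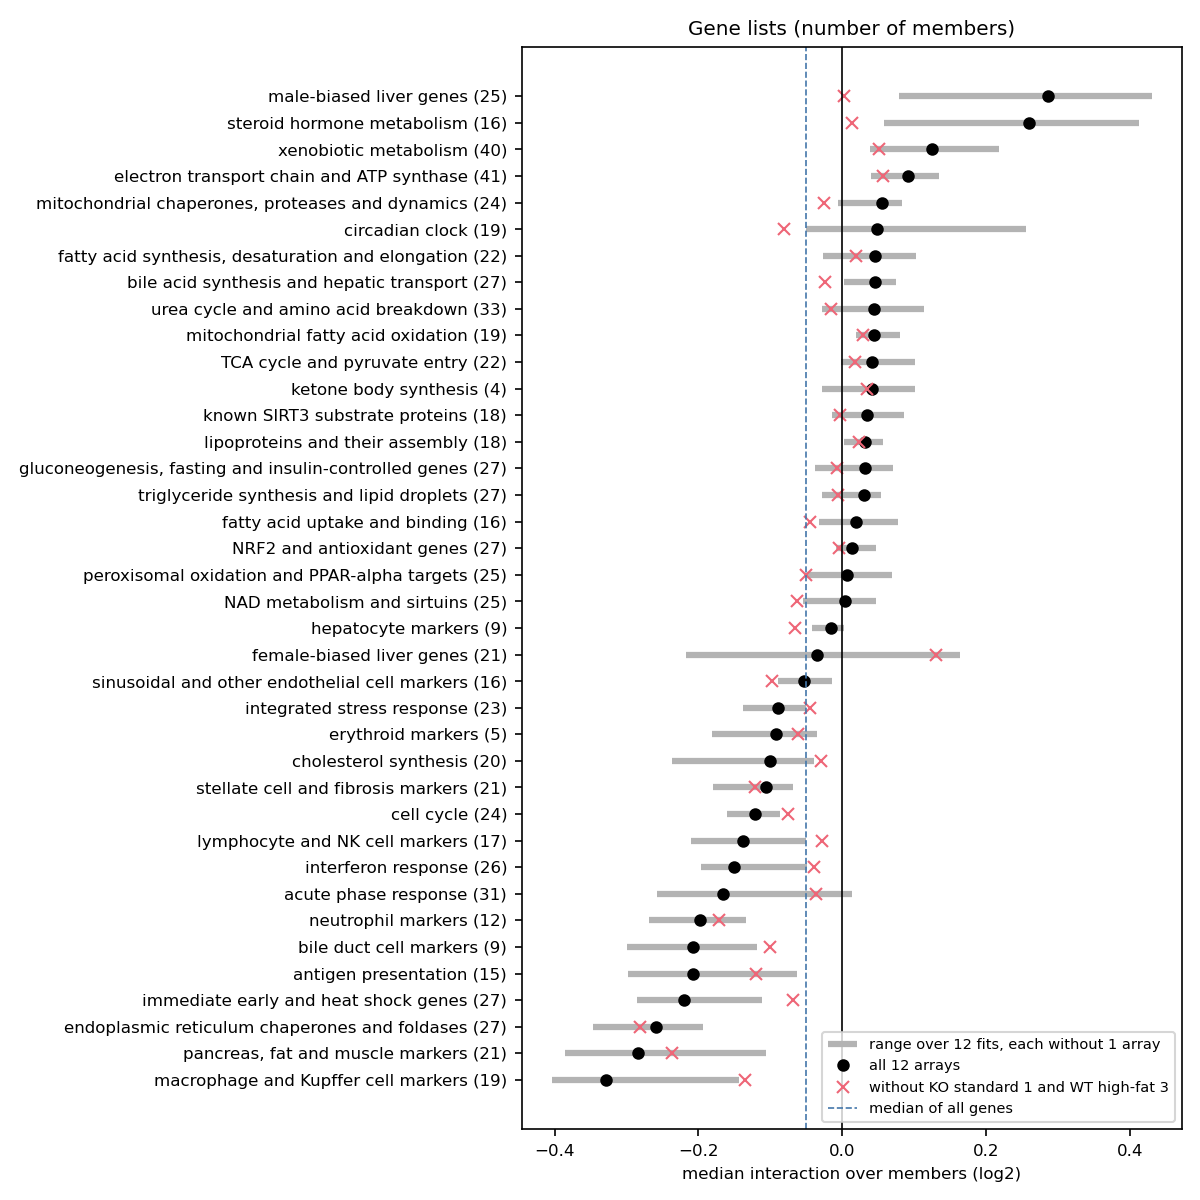
Median interaction over the members of each of the 38 gene lists (black), the range of that median over 12 fits that each leave out 1 array (grey), and the median without standard-diet knockout replicate 1 and high-fat wild-type replicate 3 (red crosses), with the median of all genes dashed. The ER list stays between -0.35 and -0.19, while the macrophage list reaches -0.14 and the male-biased list 0.08 when 1 array is left out.

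**Figure D5:**
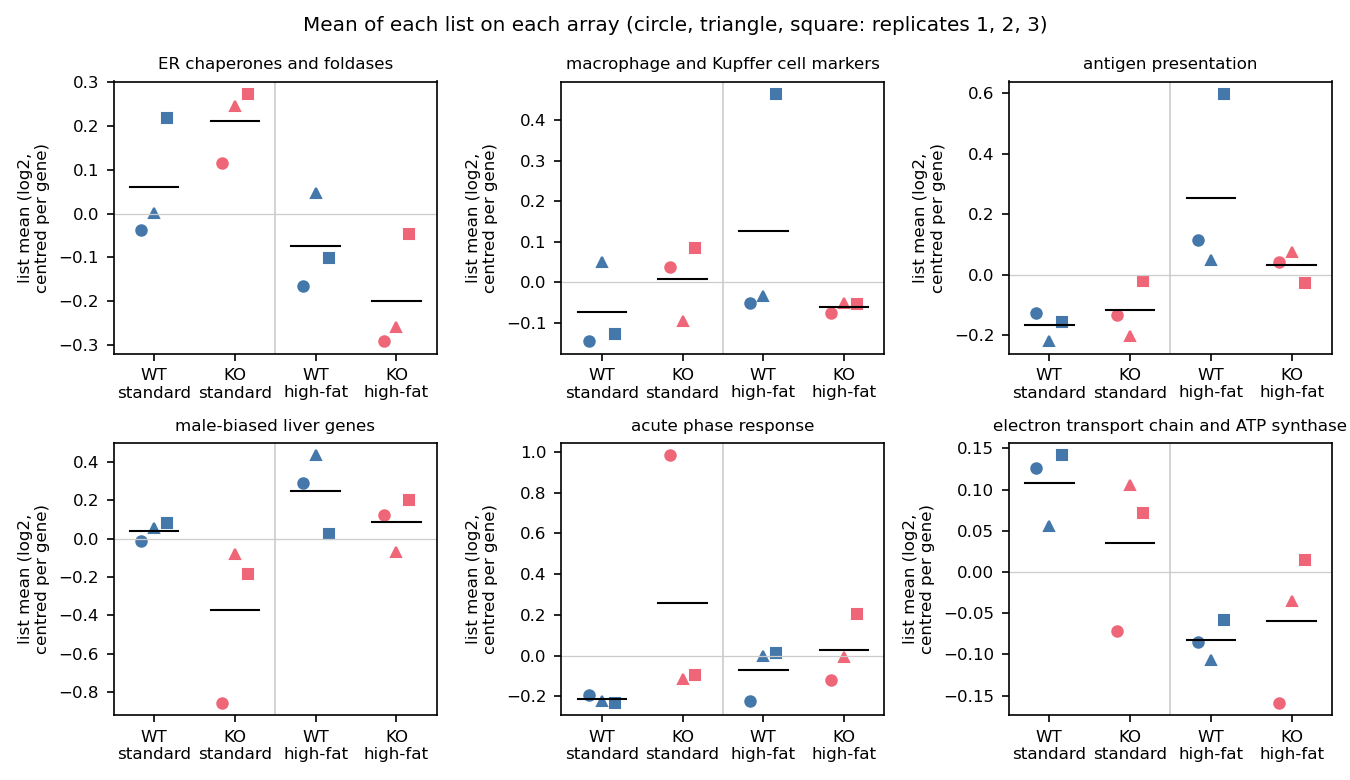
Mean of 6 lists on each array on the log2 scale, each gene centred on its mean over the 12 arrays, wild type in blue and knockout in red, with a line for the group mean. Standard-diet knockout replicate 1 is the highest array for acute phase genes (0.98) and the lowest for male-biased genes (-0.86), and high-fat wild-type replicate 3 the highest for antigen presentation (0.60) and macrophage genes (0.47), while the ER list is spread over all arrays.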

How the data were processed

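Liver RNA was measured on 12 Affymetrix arrays. The deposited values are log2 expression values that the authors made by RMA using Affymetrix Expression Console, according to the submitters' processing notes, with version and options not given. Of 35557 probe sets, 335 had no value on the standard-diet arrays alone, which points to separate runs for the diets. No further normalization was applied. Probe sets with 1 gene symbol in the platform table numbered 21789 (1621 had several symbols and 12147 were not listed), and 21698 matched the RefSeq table (GRCm38.p6). For 999 genes with more than 1 probe set the brightest was kept, leaving 19938 genes. The fit dropped 1 missing value, of Akr1d1 on high-fat knockout replicate 2. Array medians were 6.34 to 6.47, and the number of arrays limits the precision.

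With limma 3.58.1 (R 4.3.3), 1 mean per group was estimated from the 12 arrays, with variances moderated by eBayes (intensity trend on) and 8 residual degrees of freedom. Calls needed a p under 0.05 after Benjamini-Hochberg adjustment across the genes. The fit was tested on simulated data with noise independent between genes. The members, the 38 lists (29 of pathways, 9 of cell types) and the named genes were chosen with earlier results of these data known. Named genes are the 15 smallest p in each direction, the 2 smallest of each list, 10 diet genes in each direction by size, and 15 from earlier results, with predicted, clone-named, chemosensory and small RNA genes left out. Further genes in the text were chosen without a rule and are not counted among the named genes. Lists were not tested as sets. Alternatives were other moderation, array weights, a replicate block, a filter at a mean level of 5, other probe set rules, other scaling and leaving out arrays. Figures used matplotlib 3.10.9.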

Additional observations from a re-analysis of the deposited data

How the results depend on the processing

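The number of genes called for the interaction was 0 under every alternative run except 1, and leaving out each array in turn gave 0 to 1. The call was Sult2a8 without standard-diet knockout replicate 3 (interaction 1.20, limma adjusted p = 0.00657). The smallest adjusted p was 0.225 without high-fat wild-type replicate 3, 0.194 without it and standard-diet knockout replicate 1, and 0.392 with array weights. The number of genes at an unadjusted p under 0.05, 944 with all arrays, was 2074 with array weights and 691 to 2068 with each array left out, the highest without standard-diet knockout replicate 3; the cause was not tested. With the replicate number as a block, 0 genes were called and 1034 had an unadjusted p under 0.05. Same-numbered arrays deviated together in some pairs and oppositely in others (correlations -0.27 to 0.41). Differently numbered pairs are not given beside them, so whether the numbers pair the arrays is not settled by these values. The all-probe-set count, named or not, was added after seeing the data and was 0. Splits at an unadjusted p under 0.05 were 131 higher and 813 lower as deposited, 394 and 465 after quantile normalization, 433 and 326 after median centring, and 396 and 475 after cyclic loess. Of 2743 values of the 125 named genes, 2742 kept their side of the threshold. This count says little, because the smallest adjusted p was 0.945 with all arrays. The sign changed in 55 values of 14 genes, none among the 63 with an unadjusted p under 0.05. A low p in these same data already makes a change of sign unlikely. Of 836 list medians, 46 moved by more than the spread between replicates. Median centring moved medians that had stood near 0 up to 0.10 (peroxisomal oxidation and NAD metabolism), 0.11 (fatty acid uptake and NRF2), 0.12 (gluconeogenesis), 0.13 (lipoproteins and SIRT3 substrates), 0.14 (TCA cycle, fatty acid oxidation, fatty acid synthesis, bile acids and urea cycle), 0.15 (mitochondrial chaperones), 0.18 (electron transport) and 0.08 (hepatocyte markers). It also moved integrated stress genes to 0.00, endothelial markers to 0.04, and stellate, cell cycle, lymphocyte, neutrophil and bile duct markers to -0.01, -0.03, -0.04, -0.10 and -0.11. Quantile normalization and cyclic loess each gave -0.03, -0.04 and -0.09 for cell cycle, lymphocyte and neutrophil genes, and cyclic loess -0.11 for bile duct markers. Without both arrays that stood apart, uptake genes stood at -0.04, bile acid genes at -0.02, mitochondrial chaperones at -0.03, hepatocyte markers at -0.07, lymphocyte markers at -0.03, endothelial markers at -0.10, bile duct markers at -0.10, macrophage markers at -0.14, steroid genes at 0.01 and male-biased genes at 0.00. The shift of all genes under median centring, from -0.05 to 0.04, is in all its values.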
